A study of Mus musculus with 6 samples.

Results

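The genes described here are 10 components of bone morphogenetic protein (BMP) signalling: the ligands Bmp2, Bmp4 and Bmp7, the receptors Bmpr1a and Bmpr2, the signal transducers Smad1 and Smad5, and the target genes Id1, Id2 and Id3. They were taken by gene symbol from a deposited table of 16862 genes, and all 10 had a row. The table holds RNA sequencing values from male gonads of C57BL/6 mouse embryos at E13.5, an embryonic stage counted in days. The 3 wild-type libraries (WT, numbered 1, 3 and 4 in the labels) were compared with 3 libraries labelled as the double mutant L/H-Pgds-/- (here KO, numbered 5, 7 and 8), in which the genes of the lipocalin-type and hematopoietic prostaglandin D synthases are targeted, and the gonads are described as those of 6 littermates. The study asked what the loss of prostaglandin D2 does to gene expression in the fetal testis. Whole gonads were sequenced, so fewer cells of a type and less RNA per cell cannot be told apart in any value below. The deleted parts of the targeted genes are not given in the labels.

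BMPs are secreted ligands of the TGF-beta superfamily. A ligand dimer brings together type I receptors, such as Bmpr1a (ALK3), and type II receptors, such as Bmpr2, and the type I receptor then phosphorylates Smad1, Smad5 and Smad9, which enter the nucleus with Smad4. The Id genes are among the best known direct targets of this route. Id proteins are helix-loop-helix proteins without a DNA-binding region, and they hold E proteins and related factors away from DNA. In the embryo, BMP signals are required to form the primordial germ cells that later populate the gonad. RNA values do not show phosphorylation of Smads, so they give no direct reading of pathway activity.

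Ptgds, which encodes L-Pgds, stood at 7803 ± 1114 in WT and 7.39 ± 6.81 in KO (SD, n = 3 each). Hpgds, which encodes H-Pgds, stood at 49.2 ± 5.21 in WT and 92.9 ± 9.32 in KO, so its RNA value was higher in the libraries labelled as mutant (log2 0.90, SE 0.21, limma adjusted p = 0.00853). For Hpgds the RNA values therefore give no check of the label. The gonad markers Sox9, Amh, Cyp11a1, Insl3 and Ddx4 were present in every library; the lowest value among them was 707, for Insl3 in KO5. Library WT1 stood apart from the others: its summed value of 9 skeletal muscle genes was 44160, against 1523 to 2649 in the other 5 libraries. WT1 also had the lowest summed erythroid markers (36219, against 73761 to 126203). It had the highest sums for smooth muscle (34848, against 11125 to 21394) and fetal Leydig cells (134741, against 69914 to 95988). Its summed germ cell markers (42165) lay within the range of the other libraries (27459 to 46755). Across the 15116 genes tested, 34.3% passed the test between genotypes, and a fit on transcript length and GC explained 42.0% of how the log2 change varied between genes. Long transcripts were higher in KO and short ones lower. Each result on the 10 genes is therefore given with this trend in view and, where it matters, without WT1.

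Promoter sequences were taken from RefSeq (GRCm38.p6) and are shown for both receptors and for Id3, which changed in the comparison below, and for Id2, the Id gene among the 10 that did not pass the test. Each is the 250 bases before the transcription start, written 5′ to 3′ in the direction of the gene. Capitals mark 2 motifs associated with Smad binding, GGCGCC and CAGAC, searched on both strands (CAGAC reads GTCTG on the other strand). Of the 10 genes, 7 had an entry. Id1, which also passed the test, had none, nor had Bmp2 and Bmp7.
Id3, chr4:136143572-136143821, plus strand: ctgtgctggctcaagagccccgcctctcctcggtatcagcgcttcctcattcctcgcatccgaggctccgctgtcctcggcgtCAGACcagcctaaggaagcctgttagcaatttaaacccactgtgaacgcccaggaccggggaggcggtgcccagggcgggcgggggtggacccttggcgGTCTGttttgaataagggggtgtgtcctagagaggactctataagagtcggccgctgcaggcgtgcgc
Id2, chr12:25096093-25096342, minus strand: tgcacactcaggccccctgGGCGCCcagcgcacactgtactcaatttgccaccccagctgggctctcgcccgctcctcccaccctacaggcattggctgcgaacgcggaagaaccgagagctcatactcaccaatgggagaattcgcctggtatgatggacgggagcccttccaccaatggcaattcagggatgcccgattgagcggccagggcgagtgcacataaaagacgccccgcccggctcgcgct
Bmpr1a, chr14:34502547-34502796, minus strand: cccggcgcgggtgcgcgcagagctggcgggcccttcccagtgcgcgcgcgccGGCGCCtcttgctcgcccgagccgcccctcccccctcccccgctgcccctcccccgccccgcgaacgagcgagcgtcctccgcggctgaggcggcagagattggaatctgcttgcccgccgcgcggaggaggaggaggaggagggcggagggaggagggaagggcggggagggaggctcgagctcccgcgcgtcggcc
Bmpr2, chr1:59764029-59764278, plus strand: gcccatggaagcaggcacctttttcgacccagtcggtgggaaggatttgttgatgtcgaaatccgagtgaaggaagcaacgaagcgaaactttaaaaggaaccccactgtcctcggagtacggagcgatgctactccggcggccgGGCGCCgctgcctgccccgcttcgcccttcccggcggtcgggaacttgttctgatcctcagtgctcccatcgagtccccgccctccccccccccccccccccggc

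The Id3 window held CAGAC at positions -167 and -68, counted to the first base of the match with -1 as the base before the start, and no GGCGCC. The windows of Id2, Bmpr1a and Bmpr2 each held 1 GGCGCC, at -231, -198 and -105, and no CAGAC. Of 32851 promoter windows of this length in the table, 9.59% held GGCGCC and 42.2% held CAGAC. The E-box CANNTG, which E proteins bind, was found once in the Id2 window and not in the other 3, while 66.2% of all windows held it. The Bmpr1a window was 78.8% G and C, and those of Id3, Id2 and Bmpr2 were between 62.8% and 64.0%, against a median of 52.4% over all windows. A match describes letters and not a bound site, and the binding of Smads to these windows was not measured.

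Levels of different genes were compared per kb of the longest protein-coding transcript, since the deposited values are not divided by length. In WT the Id genes stood highest, with 7136 ± 1196 normalised pseudo-counts per kb for Id3, 2802 ± 253 for Id1 and 1136 ± 147 for Id2 (SD, n = 3). Smad5 followed at 772 ± 56.1 per kb and Bmpr1a at 459 ± 25.9. Smad1, Bmp4 and Bmp7 averaged 172, 168 and 155 per kb, with WT libraries from 157 to 182, from 125 to 227 and from 132 to 173, so that each overlapped the next. Bmp2 stood at 56.1 ± 3.69 and Bmpr2 lowest at 7.34 ± 0.943 per kb. All other neighbours in this order had WT libraries that did not overlap. With the median transcript length of each gene in place of the longest, Bmpr1a, whose annotated transcripts have a median of 1346.5 nt against 5956 nt for the longest, would stand at 2030 per kb in WT, above Id2 at 1761.

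The ligands did not pass the test between genotypes. Bmp2, which signals through Bmpr1a and type II receptors, had normalised pseudo-counts of 187, 213 and 199 in WT1, WT3 and WT4, and of 207, 235 and 217 in KO5, KO7 and KO8. The genotypes overlapped, and the log2 change (KO minus WT) was 0.14 (SE 0.14, 95% interval -0.17 to 0.45, limma adjusted p = 0.467). Bmp4, a ligand needed for germ cell formation in the early embryo, had 469, 311 and 258 in WT and 293, 320 and 288 in KO. The 3 KO libraries lay close together, while WT1 was the highest of all 6. The log2 change of Bmp4 was -0.16 (95% interval -0.60 to 0.28, adjusted p = 0.558), and without WT1 it was 0.08 (adjusted p = 0.71), so its sign rested on that library. Bmp7, a ligand of wide expression in epithelia, had 485, 586 and 637 in WT and 462, 510 and 554 in KO. Its genotypes overlapped, with a log2 change of -0.16 (95% interval -0.45 to 0.13, adjusted p = 0.377). For all 3 ligands the interval held no rise or fall as large as 2-fold. Bmp4 shares exon sequence with the gene Gm15217 on the opposite strand, and the use of strand in counting is not given in the sources used here, so reads of these 2 genes cannot be told apart.

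**Figure D1:**
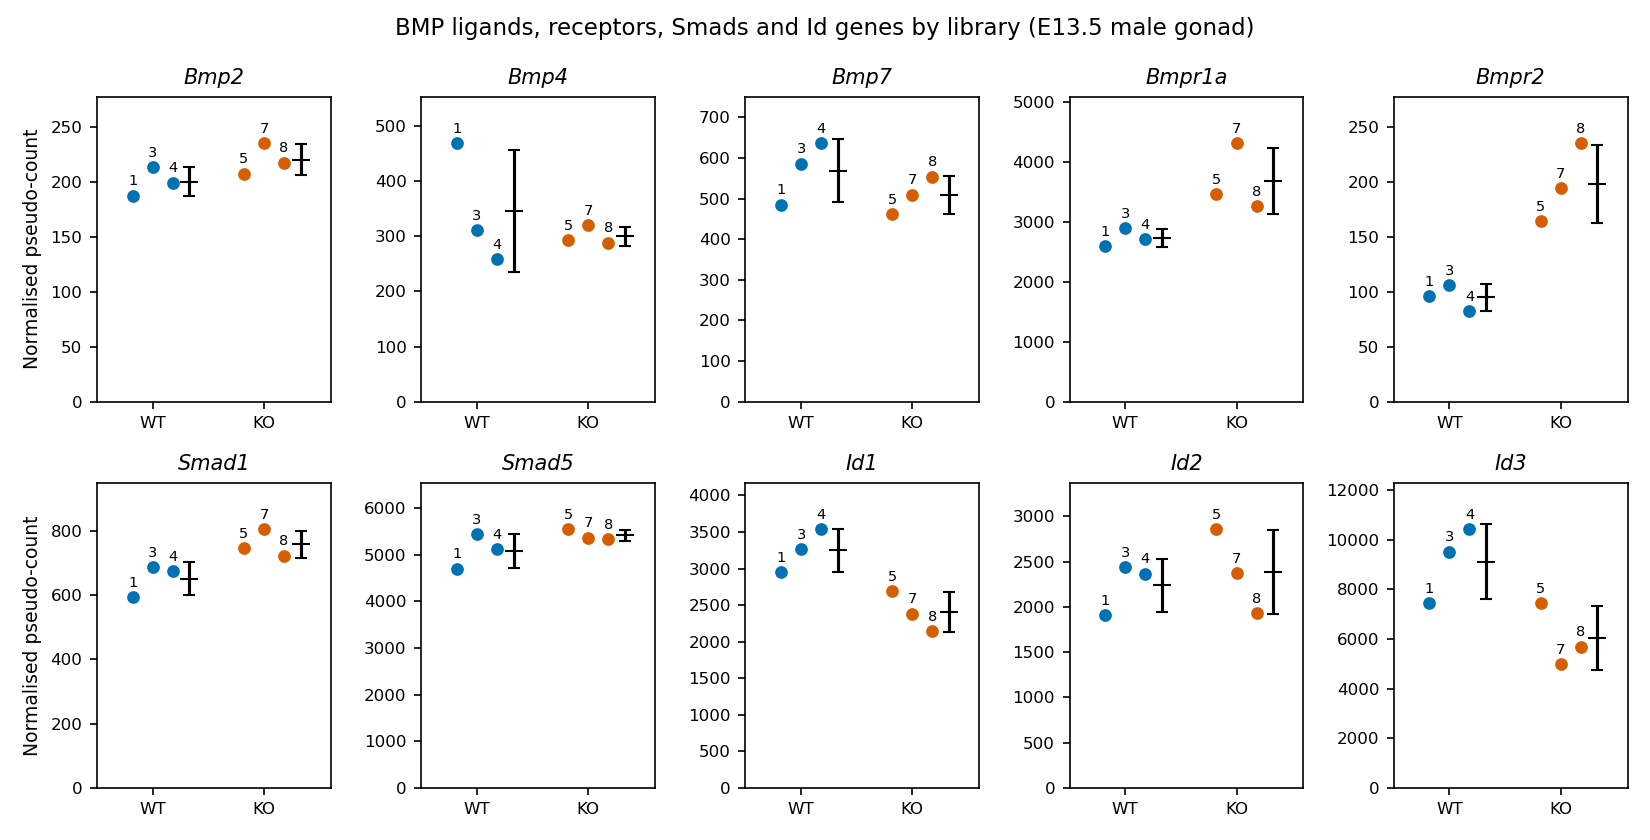
Normalised pseudo-counts (vertical axis, from 0, a separate scale for each gene) of the 10 genes in each library. Blue points are WT and orange points KO, with library numbers above them, and the black bar is the mean with its SD (n = 3). Bmpr2 is higher and Id1 lower in every KO library than in any WT library, while the ligands overlap.

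Both receptors were higher in KO. Bmpr2, the type II receptor with a long cytoplasmic tail, had 95.6, 106 and 82.0 in WT1, WT3 and WT4, and 164, 194 and 235 in KO5, KO7 and KO8. The lowest KO library was above the highest WT library, and the rise was 2.07-fold on the log2(value + 1) scale (log2 1.05, SE 0.19, adjusted p = 0.00331). This was the change of greatest size among the 10 genes, in the gene with the lowest level per kb. Bmpr1a, the type I receptor that binds Bmp2 and Bmp4, had 2592, 2899 and 2711 in WT and 3465, 4316 and 3264 in KO. Its genotypes were also fully apart, with a rise of 1.34-fold (log2 0.42, SE 0.11, adjusted p = 0.0156). KO7 was the highest library, and without it the log2 change was 0.30. Bmpr1a shares exon sequence with the antisense gene Gm17110, with the same limit on strand. The other type II receptors, which can also carry BMP signals, stood above Bmpr2 per kb: Acvr2a at 54.9 ± 6.27 in WT and 93.9 ± 14 in KO, and Acvr2b at 44.3 ± 3.22 and 55 ± 5.53, against 7.34 ± 0.943 and 15.3 ± 2.76 for Bmpr2 (SD, n = 3).

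Smad1 and Smad5 did not pass the test. Smad1 had 592, 687 and 673 in WT and 745, 804 and 722 in KO, so every KO library was above every WT library. The log2 change was 0.22 (SE 0.10, 95% interval -0.01 to 0.45, adjusted p = 0.129). Smad1 did pass when libraries were scaled to equal totals (log2 0.32, adjusted p = 0.0416). Smad5, a closely related transducer, had 4697, 5433 and 5110 in WT and 5542, 5362 and 5326 in KO. WT3 lay within the KO range, and the log2 change was 0.09 (SE 0.09, 95% interval -0.10 to 0.28, adjusted p = 0.419). Smad5 shares exon sequence with the RNA gene Gm27301 on the same strand, so strand could not separate reads of the shared part.

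Among the Id genes, Id1 and Id3 were lower in KO and Id2 did not pass the test. Id1, an inhibitor of differentiation widely used as a readout of BMP signalling, had 2950, 3263 and 3536 in WT and 2687, 2382 and 2144 in KO. No KO library reached the lowest WT library, and the fall was 1.35-fold in the ratio of WT to KO (log2 -0.44, SE 0.11, adjusted p = 0.0110). Id3 had 7436, 9507 and 10418 in WT and 7447, 4975 and 5690 in KO. Library KO5 was level with WT1 and the other KO libraries were below all WT libraries. The fall of Id3 was 1.52-fold (log2 -0.60, SE 0.16, adjusted p = 0.0162). Id2 had 1905, 2438 and 2368 in WT and 2857, 2374 and 1932 in KO. The KO libraries spread over nearly the whole range of the 6 values, and the log2 change was 0.08 (SE 0.14, 95% interval -0.24 to 0.41, adjusted p = 0.675).

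In all, 4 of the 10 genes passed the test, against 34.3% of all genes tested. Of these, 2 were higher (17.3% of all genes) and 2 lower (17%). In 4 of the 10, namely Bmpr1a, Bmpr2, Smad1 and Id1, WT and KO libraries were fully apart, which was so for 50.3% of all genes. The exact permutation p of these 4 was 0.1, the smallest that 3 against 3 libraries allow. The median size of the log2 change was 0.19 over the 10 genes and 0.30 over all genes. By these measures the 10 genes lay near or below the table at large. With values scaled to equal totals, 67.5% of all calls were higher in KO, against 50.4% as deposited, and the median log2 change of all genes was 0.07 in place of -0.03; the calls of Bmpr1a, Bmpr2, Id1 and Id3 held in the same direction.

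The genes that rose had long transcripts and those that fell had short ones. Bmpr2 (12899 nt) and Bmpr1a (5956 nt) rose, and they had the lowest GC content of the 10 transcripts, 41.0% and 41.3%. Id1 (1160 nt, 54.7% GC) and Id3 (1278 nt, 55.6% GC) fell, and were the shortest of the 10. Length alone did not separate the genes that passed from the others: Smad5, at 6584 nt and 44.5% GC, is longer than Bmpr1a and did not pass. Id2, at 1969 nt, had 45.1% GC. The plot of change against length shows the same slope in all genes.

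**Figure D2:**
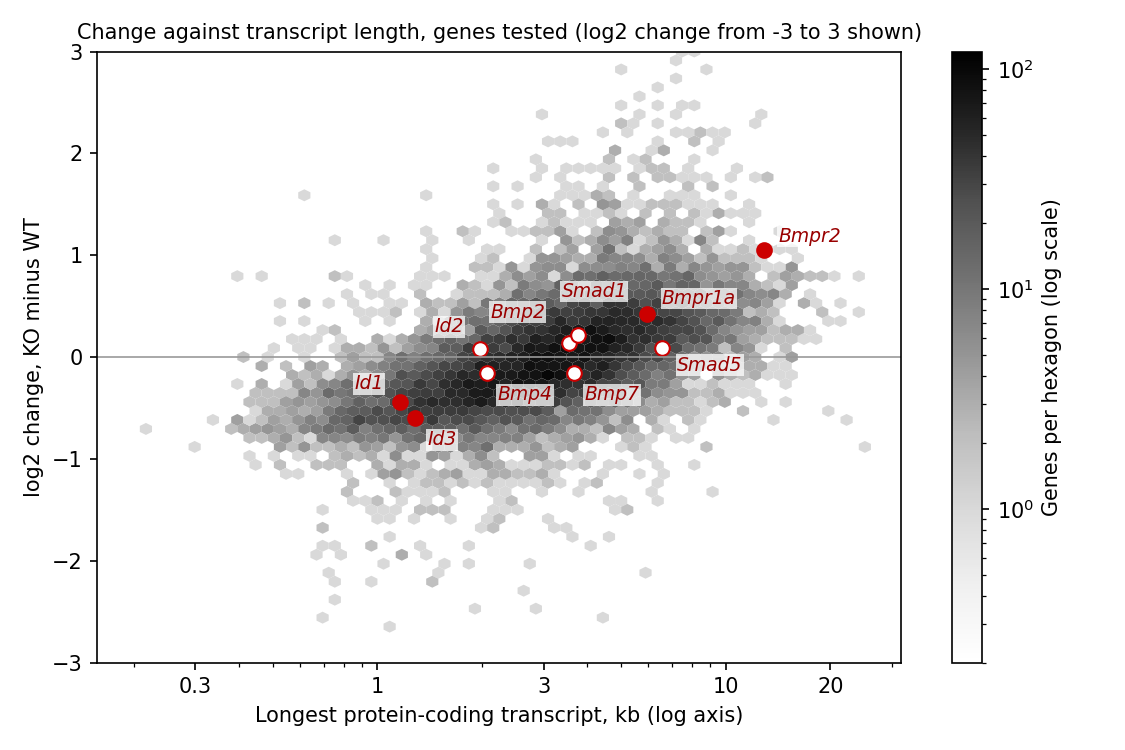
Log2 change (KO minus WT, vertical axis) against the length of the longest protein-coding transcript in kb (log axis). Grey hexagons count the genes tested that have a length; 6 with a log2 change beyond 3 in size, and any with a length beyond the axis, are not drawn. Red circles are the 10 genes, filled where the adjusted p was under 0.05. Id1 and Id3 at the short end and Bmpr1a and Bmpr2 among the long transcripts follow the slope of the grey cloud, and Smad5, longer than Bmpr1a, is open at 0.09.

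When the trend on length and GC was removed within each library, none of the 4 calls held in limma's test. The trend differs between KO and WT, so its removal also takes out any effect of genotype that follows length or GC. The source of the trend cannot be told apart from genotype here. The log2 change of Bmpr2 went from 1.05 to 0.40 (SE 0.18, 95% interval 0.01 to 0.80, adjusted p = 0.167). That of Bmpr1a went from 0.42 to -0.11 (SE 0.06, adjusted p = 0.278). For Id1 it moved from -0.44 to 0.06 (SE 0.11, adjusted p = 0.737), and for Id3 from -0.60 to -0.10 (SE 0.15, adjusted p = 0.717). With WT1 also left out, the change of Id3 was -0.27 (SE 0.12, adjusted p = 0.166) and that of Id1 -0.03 (adjusted p = 0.876). Of these 4, Bmpr2 kept the most of its change, and its unadjusted interval just cleared 0. Smad5, a long transcript of 6584 nt, was lower after removal (log2 -0.38, SE 0.07, adjusted p = 0.00922), although its deposited values overlapped between genotypes and pointed up. The removal used the longest transcript of each gene and was not repeated with the median length. That median is 1346.5 nt for Bmpr1a, against 5956 nt for the longest, and 4570 nt for Smad5. The values of these genes after removal therefore rest on this choice of length. Of the 10 genes 1 was past the threshold after removal, against 12.7% of the 14449 genes with a length and GC value. In limma's test 2 (Bmpr2 and Smad5) had an unadjusted p under 0.05. The share of all genes at that unadjusted level is not given here and is at least 12.7%. The median size of the change after removal was 0.11 over the 10 genes and 0.17 over all genes.

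**Figure D3:**
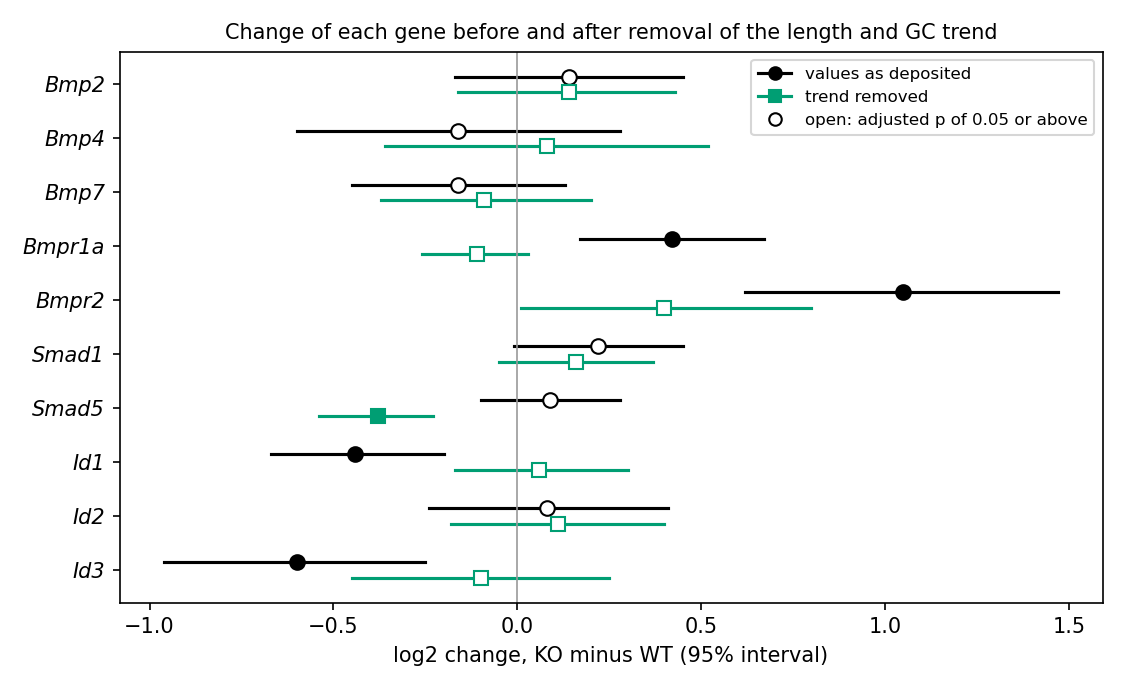
Log2 change (KO minus WT, horizontal axis) of each gene with its 95% interval, from the values as deposited (black circles) and after the trend on length and GC was removed (green squares). Filled symbols have an adjusted p under 0.05. The 4 filled circles have open squares nearer 0, and Smad5 alone has a filled square, at -0.38.

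Single libraries also bore on the calls. Bmpr2 passed with any 1 library left out, with a log2 change between 0.92 and 1.17 and an adjusted p of at most 0.0181. Without WT4, Bmpr1a (adjusted p = 0.0545), Id1 (0.0541) and Id3 (0.0707) did not pass, while their log2 changes were 0.41, -0.37 and -0.50. Id3 also missed the threshold without KO7 (log2 -0.47, adjusted p = 0.0532). Without WT1, the library with the skeletal muscle signal, the falls were deeper, at -0.50 for Id1 and -0.74 for Id3 (adjusted p = 0.00710 and 0.00324), and the rises were 0.38 for Bmpr1a and 1.06 for Bmpr2. Among WT libraries, WT1 had the highest Bmp4, by 0.72 on the log2 scale above the mean of the other WT libraries, and the lowest Id3, by -0.42.

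**Figure D4:**
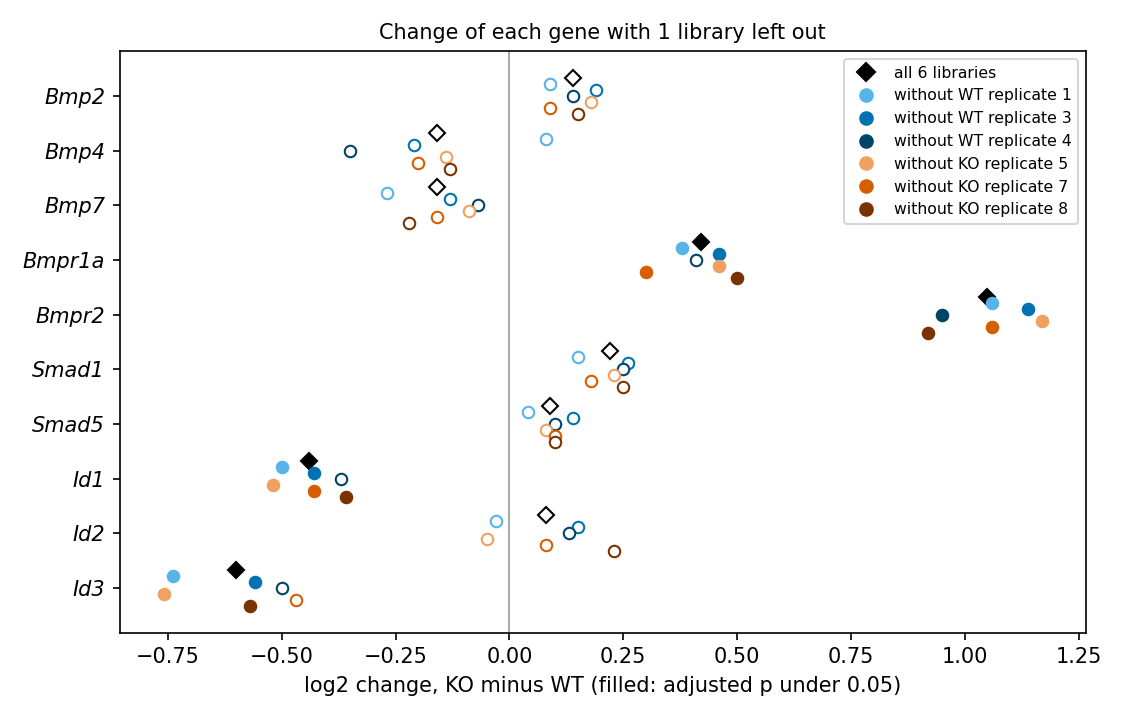
Log2 change (KO minus WT, horizontal axis) of each gene with all 6 libraries (diamonds) and with each library left out in turn (circles, coloured by the library left out). Filled symbols have an adjusted p under 0.05. Bmpr2 stays filled throughout, between 0.92 and 1.17, and Bmp4 and Id2 have circles on both sides of 0.

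The rest of the pathway was read from lists by role, 59 genes in all, of which 56 were in the table and 52 passed the filter on low values. Of these 52, 9 were higher in KO, 5 lower and 38 did not pass, against 17.3% and 17% of all genes. The share that rose was thus that of the table, and the share that fell was below it. Among 8 other ligands 0 passed in limma's test, and 1 had an unadjusted p under 0.05. At least 34.3% of all genes were under that unadjusted level. The ones with the highest values were Gdf10 (751 ± 165 in WT and 588 ± 124 in KO) and Bmp6 (164 ± 45.6 and 168 ± 15.4). Among 11 other receptors and co-receptors, Acvr2a, a type II receptor of activins and BMPs, rose (log2 0.77, SE 0.14, adjusted p = 0.00369). Eng, the endothelial co-receptor endoglin, fell (log2 -0.42, SE 0.09, adjusted p = 0.00638). Both type II receptors that rose, Bmpr2 and Acvr2a, have transcripts over 5 kb, and the log2 change of Acvr2a after removal of the trend was 0.21 (adjusted p = 0.181), while that of Eng was -0.27 (adjusted p = 0.0358, and 0.0747 with WT1 also left out).

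Extracellular antagonists, which bind BMPs or related ligands outside the cell, went both ways, with 2 of 14 higher and 2 lower. Crim1, a membrane protein with BMP-binding repeats, rose from 342 ± 26.7 to 534 ± 26.8 (SD, n = 3; log2 0.64, SE 0.12, adjusted p = 0.00318). Dand5 and Nbl1, members of the DAN family of secreted antagonists, fell, with log2 changes of -0.75 (adjusted p = 0.00340) and -0.69 (adjusted p = 0.00174). Twsg1, which encodes the BMP-binding protein twisted gastrulation, also rose (log2 0.26, adjusted p = 0.0321), and its call ended without any library other than KO8 (0.0590 to 0.107). After removal of the trend, Crim1 (adjusted p = 0.0507), Dand5 (0.0942), Nbl1 (0.0829) and Twsg1 (0.786) did not pass. In limma's test 0 of the 14 then passed, and 5 had an unadjusted p under 0.05. The share of all genes at that unadjusted level is not given here and is at least the 12.7% that passed. Nog and Chrd, which encode the BMP antagonists noggin and chordin, are named here outside the rule for named genes. Their log2 changes were -0.74 (SE 0.41, adjusted p = 0.186) and -0.40 (SE 0.24, adjusted p = 0.215). Nog had 194 in WT3, against 70.8 and 72.1 in WT1 and WT4 and 36.6 to 83.4 in KO. Chrd had 319 in WT1, against 180 and 175 in WT3 and WT4, and without WT1 its log2 change was -0.12.

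Among 9 other Smads and intracellular or membrane inhibitors, 4 rose and 1 fell. Smad7, an inhibitory Smad induced by BMP and TGF-beta signals, rose from 1427 ± 91.7 to 1907 ± 110 (log2 0.42, SE 0.09, adjusted p = 0.00645), and by 0.46 after removal of the trend (adjusted p = 0.0161). Skil, a repressor of Smad-dependent transcription, rose by 0.77 and Smurf2, a ubiquitin ligase of Smads, by 0.44, and neither passed after removal (adjusted p = 0.142 and 0.463). Smad4, the shared partner of activated Smads, named after its value was seen, rose by 0.27 (adjusted p = 0.0300; 0.0909 after removal). Bambi, a pseudoreceptor and a known BMP target, fell from 3029 ± 396 to 2324 ± 214 (log2 -0.38, SE 0.11, adjusted p = 0.0269), and its log2 change after removal was -0.79 (adjusted p = 0.00460). Its transcript has 5074 nt, and it fell against the direction of other long transcripts. As deposited, the call of Bambi ended without WT3, WT4, KO7 or KO8 (adjusted p from 0.0685 to 0.111) and with equal totals (log2 -0.28, 0.0844), and that of Smad4 without any library other than WT3 (0.0572 to 0.114). With the trend removed and WT1 left out, Bambi and Smad7 still passed, with log2 changes of -0.88 and 0.42.

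Of 7 other target genes, 1 passed: Atoh8, a helix-loop-helix factor induced by BMP signals, fell by 0.57 on the log2 scale (SE 0.16, adjusted p = 0.0191), and its change after removal was -0.20 (adjusted p = 0.336). Without WT4, Atoh8 did not pass as deposited (log2 -0.51, adjusted p = 0.0784). Id4, the remaining Id gene, had 330, 302 and 320 in WT and 389, 386 and 317 in KO, and did not pass (log2 0.19, adjusted p = 0.280). Of 3 E proteins that Id proteins bind, Tcf4 and Tcf12 rose by 0.43 and 0.58 (adjusted p = 0.00789 and 0.00484), and Tcf3 did not pass (log2 -0.10). The transcripts of Tcf4 and Tcf12 have 8577 and 6299 nt, and after removal of the trend their log2 changes were -0.20 and 0.11 (adjusted p = 0.118 and 0.388). In this wider pathway 1 gene was higher and 3 lower after removal, of 52, against 6.07% and 6.64% of all genes. These 4 are together a smaller share than the 12.7% of all genes. The higher one was Smad7, and the lower ones were Eng, Bambi and Neo1, a co-receptor named after its value was seen (log2 -0.23, adjusted p = 0.0350).

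**Figure D5:**
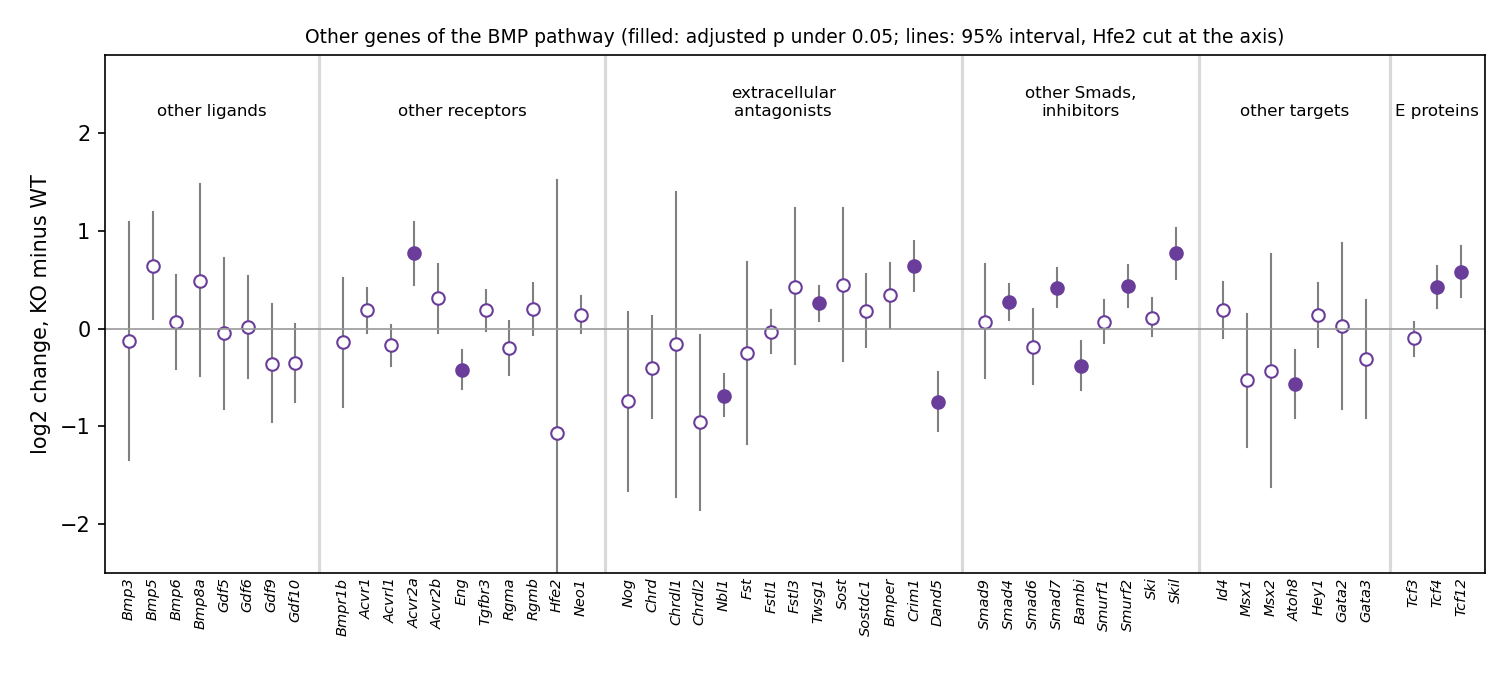
Log2 change (KO minus WT, vertical axis) of 52 other genes of the BMP pathway from the values as deposited, grouped by role, with 95% intervals as lines. Filled circles have an adjusted p under 0.05. Filled circles lie on both sides of 0 among receptors, antagonists and inhibitors, and no other ligand is filled.

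Id1 and Id3 are expressed in endothelial cells as well as in other cells, so endothelial markers were read beside them. The summed value of 12 endothelial markers was 12146 to 15791 in WT and 12582 to 14685 in KO. Of the 12, 2 were higher and 4 lower, against 17.3% and 17% of all genes. Pecam1 stood at 1897 ± 315 and 2143 ± 103, and Cdh5 at 2080 ± 397 and 2465 ± 74.2 (SD, n = 3; adjusted p = 0.245 and 0.124). The 6 that passed are named here outside the rule for named genes. The VEGF receptor genes Kdr and Flt1 rose, by 0.79 and 1.05 on the log2 scale (adjusted p = 0.00520 and 0.00295). Egfl7, Emcn, Esam and Cldn5 fell, as Id1 and Id3 did, with log2 changes of -0.46, -0.35, -0.37 and -0.52 (adjusted p = 0.00686, 0.0411, 0.0426 and 0.0109). The call of Emcn ended without any library other than WT1 (adjusted p from 0.0528 to 0.130), that of Esam without WT3, WT4, KO7 or KO8 (0.0575 to 0.117) and that of Cldn5 without WT4 (0.0505). After removal of the trend Kdr (log2 0.49, adjusted p = 0.0468) and Flt1 (0.74, 0.0189) were higher and Emcn (-0.53, 0.0139) was lower, while Egfl7 (0.07), Esam (-0.05) and Cldn5 (0.02) did not pass. Macrophage marker sums did not overlap between genotypes (2444 to 3328 in WT and 1548 to 1817 in KO, 5 of 10 lower). Nor did those of smooth muscle (16998 to 34848 and 11125 to 12877, 5 of 7 lower), where WT1 was the highest. Of all genes, 17% were lower, and WT and KO libraries were fully apart in 50.3%. After removal of the trend, 3 of 10 macrophage and 2 of 7 smooth muscle markers were lower, against 6.64% of all genes. Sertoli cell sums were 125345 to 153023 and 87459 to 121963, with 3 of 12 lower and 1 higher. After removal the counts were the same but not all the genes. Fgf9 (log2 -0.54, adjusted p = 0.0153) then passed as lower, and Clu (adjusted p = 0.114) no longer did. The targeted gene Ptgds was among the lower both as deposited and after removal. The lowest Sertoli sum in WT (WT1) exceeded the highest in KO (KO8) by less than the WT1 value of Ptgds, 6560. Without Ptgds the Sertoli sums therefore overlap. Sums of the remaining lists overlapped between genotypes. Among interstitial markers 4 of 10 were higher, and among germ cell markers 2 of 14. Of fetal Leydig cell markers 3 of 9 were lower, and of mesonephric epithelium markers 2 of 10 were higher and 2 lower. Erythroid (0 of 5) and skeletal muscle markers (0 of 9) did not pass. No marker of these lists was at 0 in all libraries. The part of these cell types in the values of Id1 and Id3 was not tested.

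Profiles most like those of the 4 genes that passed were sought among 11771 other genes with a mean value of at least 100, by the root mean square difference of log2 values centred on each gene's mean over the 6 libraries. For Id1 the nearest were Hdac1 (0.039) and Zfp511 (0.056), and for Id3 Grap (0.062) and Abi3 (0.087). For Bmpr1a they were Taok1 (0.016) and Cenpj (0.017), and for Bmpr2 Lphn3 (0.089) and Plekhh1 (0.095). With 6 libraries and this many candidates, close matches are found for any gene, and these are given as a description. On chromosome 2, which carries the targeted gene Ptgds, Bmp2, Id1 and Bmp7 lie 108, 127 and 147 Mb from it in mm9, and none of the other 7 genes shares a chromosome with Ptgds or Hpgds. In mm9 Id1 (NCBI gene 15901) spans chromosome 2 from 152562010 to 152563146, Id3 (15903) chromosome 4 from 135699737 to 135701307, Bmpr1a (12166) chromosome 14 from 35224254 to 35315732, and Bmpr2 (12168) chromosome 1 from 59821481 to 59927703.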

How the data were processed

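RNA from 3 WT and 3 KO male gonads was sequenced from TruSeq libraries, per the labels' protocols. The deposited values are a signal per gene, upper-quartile normalised pseudo-counts, which the authors made from their reads; per the submitters' processing notes they used CASAVA 1.8.2, edgeR 2.6.2 and build mm9. For the annotation and any use of strand, nothing is given in the sources used here. Values are fractional, their sums (21657342 to 23734462) follow from the normalisation, and the depth is unknown, so counting error cannot be given and count models were not used.

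The 15116 genes reaching 10 in 3 or more libraries were tested on the scale log2(value + 1) by limma 3.58.1 (R 4.3.3): a moderated two-sided test with a mean-dependent prior and Benjamini-Hochberg adjusted p-values, taken over the whole set of tested genes, under 0.05. The log2 scale with this pseudocount understates changes of low genes. Intervals are 95% intervals of the fit. The labels call the embryos littermates but tie no library to a litter or batch. The p-values set the difference between genotypes against the spread within each group of these 6 samples, moderated across genes. The length and GC trend was removed in each library with natural splines (4 degrees of freedom for each variable), from the longest protein-coding transcript in GENCODE vM21 (GRCm38), matched by NCBI gene ID (14449 genes, 95.6%) without its coordinates. The fits were also run on simulated data, without a trend and with a straight length trend shared by all KO libraries. No GC effect was simulated, so these runs do not test removal of a GC trend. Python 3.11.15 and matplotlib 3.10.9 were used for figures.

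The members, gene lists, tests and alternatives (21, with pseudocounts, filters, scalings, priors, weights, thresholds, trend removal and each library left out) were chosen with earlier results of these data known. Named are all members, both targeted genes, the defining markers Sox9, Amh, Cyp11a1, Insl3, Ddx4, Pecam1 and Cdh5, the nearest profiles, and from each other BMP list the genes past the threshold (at most 4 by size of change, or the 2 with the highest mean where none passed). A gene of these lists is not reported here and was left out of their counts.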

Additional observations from a re-analysis of the deposited data

How the results depend on the processing

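As deposited, 2 members were higher and 2 lower in KO, with 2609 and 2571 of all genes and 9 and 5 of the other pathway genes. No mean-dependent prior gave 1 member higher and 1 lower (Bmpr1a adjusted p = 0.0558, Id3 0.0628), quantile normalisation 1 lower (Id3 log2 -0.45, 0.0557), and a threshold of 0.01 gave 1 higher and 0 lower, with 1380 and 1209 of all genes and 3 other pathway genes lower. Equal totals gave 1687 of all genes lower. With the length and GC trend removed, 0 members were higher and 1 lower, with 877 and 959 of all genes and 1 and 3 other pathway genes; without WT1 as well, 0 and 1, 866 and 898, and 2 and 2. With 1 library left out, members higher ranged from 1 to 2 and lower from 0 to 2 (the fewest without WT4), all genes higher from 1664 to 2500 and lower from 1434 to 2538, and other pathway genes higher from 7 to 9 and lower from 3 to 7.

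Signs turned for Bmp4 (-0.16; -0.35 to 0.08 with 1 library left out, the highest without WT1; 0.08 with the trend removed and 0.31 with both), Bmpr1a (0.42 to -0.11, and -0.13 with both), Smad5 (0.09 to -0.38, and -0.42 with both), Id1 (-0.44 to 0.06 with the trend removed, and -0.03 with both) and Id2 (0.08; -0.05 to 0.23 with 1 library left out, below 0 without WT1, at -0.03, and without KO5; 0.00 with both). Library weights brought Bmp7 past the threshold (log2 -0.30, adjusted p = 0.0382). The cause of these moves was not tested. Trend removal fits length and GC content itself, and that trend cannot be told apart from an effect of genotype. No paired analysis was possible because WT and KO share no replicate number. The unknown depth limits low genes most, Bmpr2 among the members.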
